A study of Mus musculus with 14 samples.

Results

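The genes described are 9 imprinted genes that control growth in the mouse, Peg3, H19, Dlk1, Meg3, Mest, Cdkn1c, Grb10, Plagl1 and Igf2r. They were chosen by name, after their levels in these libraries had been seen, and their symbols were mapped to Ensembl gene IDs. All 9 were found among the 47729 genes of the count table, and all 9 passed the filter on low counts, which kept 15015 genes. RNA was sequenced from cells sorted from the synovium, the tissue that lines the joint, of C57BL6 mice of 16 weeks. The 14 libraries, numbered 1 to 14 in the labels, form 3 groups. Libraries 10 to 14 hold CD200-CD105+ cells of mice with antigen-induced arthritis (CD105+ arthritic, n = 5). Libraries 5 to 9 hold CD200+CD105- cells of mice with the same arthritis (CD200+ arthritic, n = 5), and libraries 1 to 4 hold CD200+CD105- cells of nonimmunized mice (CD200+ nonimmunized, n = 4). Arthritic mice were immunized with methylated bovine serum albumin in complete Freund's adjuvant and then received the albumin in the joint, while nonimmunized mice received phosphate buffered saline instead. Joints were taken 10 days after the injection into the joint. All cells were TER119-, CD31-, CD45- and CD51+, and each library came from 200 to 500 cells. The labels do not say whether samples came from separate animals, or whether the arthritic populations share animals, so the spread between samples may be in part technical. CD105+ cells of nonimmunized mice are not analysed here.

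Imprinted genes are expressed mainly from the copy inherited from a single parent, which is set by DNA methylation laid down in the germ line. Many act on fetal growth, and as a broad rule paternally expressed members such as Igf2, Peg3, Mest and Dlk1 promote growth while maternally expressed members such as Igf2r, Cdkn1c, H19 and Grb10 restrain it. Their levels fall in most mouse tissues after birth, and several stay expressed in stem and progenitor cells, among them the satellite cells of skeletal muscle. Gene counts do not tell the parental copies apart, so imprinting itself was not measured.

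The promoter windows of the members whose level differed between the sorted populations are shown first, as sequence context for the values. Of the 9 genes, 7 have an entry in the RefSeq promoter table (GRCm38.p6), which gives 250 bases before and 50 bases after a gene start, and H19 and Cdkn1c have none. Each window is printed 5′ to 3′ on the gene's strand, with CG dinucleotides in capitals, since CG-rich stretches are where the methylation that marks imprinted copies can lie. In the Peg3 window the letters GGGGCCCC are also in capitals, a core recognised by PLAGL1, the product of another of the 9 genes. Meg3 and Grb10 each have a second start in the table, and the window printed is that of the first. The windows are chr7:6730370-6730669 (minus strand) for Peg3, chr12:109540746-109541045 (plus strand) for Meg3, chr11:12037371-12037670 (minus strand) for Grb10 and chr17:12769657-12769956 (minus strand) for Igf2r.
Peg3: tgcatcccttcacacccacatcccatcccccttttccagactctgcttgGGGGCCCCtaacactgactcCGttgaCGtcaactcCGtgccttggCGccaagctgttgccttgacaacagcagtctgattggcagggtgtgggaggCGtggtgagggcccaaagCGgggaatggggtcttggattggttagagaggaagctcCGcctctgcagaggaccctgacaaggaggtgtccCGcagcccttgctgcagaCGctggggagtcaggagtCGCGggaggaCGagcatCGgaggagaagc
Meg3: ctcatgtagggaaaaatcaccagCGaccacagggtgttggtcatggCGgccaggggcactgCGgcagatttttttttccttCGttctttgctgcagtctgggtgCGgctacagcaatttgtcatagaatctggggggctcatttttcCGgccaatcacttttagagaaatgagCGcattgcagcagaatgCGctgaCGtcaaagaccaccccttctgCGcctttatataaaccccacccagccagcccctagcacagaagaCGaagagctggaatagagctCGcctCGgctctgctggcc
Grb10: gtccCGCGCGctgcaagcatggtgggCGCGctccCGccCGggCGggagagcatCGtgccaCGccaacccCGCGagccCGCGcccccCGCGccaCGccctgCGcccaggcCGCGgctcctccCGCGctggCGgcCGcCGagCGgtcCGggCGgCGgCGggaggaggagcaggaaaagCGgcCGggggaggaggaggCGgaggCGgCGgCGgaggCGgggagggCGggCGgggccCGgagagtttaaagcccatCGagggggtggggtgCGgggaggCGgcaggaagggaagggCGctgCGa
Igf2r: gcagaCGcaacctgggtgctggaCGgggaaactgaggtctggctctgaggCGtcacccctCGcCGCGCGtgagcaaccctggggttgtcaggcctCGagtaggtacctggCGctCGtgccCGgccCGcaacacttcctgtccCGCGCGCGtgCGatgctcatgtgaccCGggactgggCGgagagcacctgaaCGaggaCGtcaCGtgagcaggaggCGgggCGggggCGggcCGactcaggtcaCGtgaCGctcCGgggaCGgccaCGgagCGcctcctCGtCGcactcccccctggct

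The printed Grb10 window held 45 CG dinucleotides, more than 98.1% of the 32851 promoter windows of the table. The Igf2r window held 34, more than 92.3% of windows, and the printed Peg3 and Meg3 windows held 13 each, more than 62.1%, against a median of 7. At their second starts Grb10 had 9, more than 54.2% of windows, and Meg3 had 1, more than 5.4%. GGGGCCCC, which reads the same on both strands, began at base 50 of the Peg3 window and was in none of the other 6 genes' windows, 11 windows having been searched over the 7 genes. It was in 1.08% of all windows. The window of the opposite-strand imprinted gene Usp29 shares 263 bases with that of Peg3 and so holds the same match. The letters GCCATNTT, a YY1-type motif found in 6.05% of windows, and a CTCF-type consensus of 14 letters, found in 0.0365%, were searched on both strands and were in none of the 11 windows. These matches describe letters, not binding.

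Counts on genes ranged from 2919666 to 18553803 per library, and levels are given in CPM, gene counts scaled to a common library total with TMM factors. Added spike-in RNA took 20.3% to 55.6% of all counts in CD105+ arthritic libraries, 43.5% to 91.98% in CD200+ arthritic libraries and 47.5% to 85.4% in CD200+ nonimmunized libraries, and was over 80% in libraries 2, 5 and 6. A count of 0 over a whole group (3 counts, counting error only) allows up to 0.0479 CPM in CD105+ arthritic cells, 0.0577 CPM in CD200+ arthritic cells and 0.0540 CPM in CD200+ nonimmunized cells. Cd200, which encodes the sorted CD200 protein, averaged 2.30 ± 5.14 CPM in CD105+ arthritic cells, 420 ± 98.8 CPM in CD200+ arthritic cells and 593 ± 178 CPM in CD200+ nonimmunized cells (SD). Eng, the CD105 gene, had means of 6.63, 0.504 and 5.29 CPM in that order, low in each group.

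In arthritis, the question was which of the 9 genes differ between CD105+ and CD200+ cells. All 9 had a lower fitted level in CD105+ cells, where 51.2% of all genes did, and 4, Peg3, Meg3, Cdkn1c and Igf2r, passed the threshold (edgeR quasi-likelihood test, Benjamini-Hochberg adjusted p under 0.05 over all 15015 genes). Across all genes 11.3% passed in either direction and 6.48% were called lower. The median log2 change was -4.94 for the 9 genes and -0.05 for all genes tested. Because the genes were chosen with these values in view, the counts and changes are a description and not independent evidence. The sequenced RNA came from bulk samples, in which fewer cells of a type and less RNA per cell cannot be told apart.

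Of the zinc finger transcription factors, Peg3 had the largest change of the 9. It had 0.67, 6.66, 11.1, 0 and 2.07 CPM in CD105+ arthritic libraries 10 to 14. In CD200+ arthritic libraries 5 to 9 it had 948, 358, 617, 332 and 553 CPM, and in CD200+ nonimmunized libraries 1 to 4 it had 269, 182, 284 and 731 CPM. Every CD105+ library lay far under every CD200+ library, with no overlap. The log2 change in arthritis was -7.08 (SE 1.15), and the mean was 137-fold lower in CD105+ cells. With 1 library left out it was from 110-fold (CD105+ library 13) to 239-fold (CD105+ library 12) lower. Peg3 is known in the mouse as a regulator of cell survival and maternal behaviour, and it is expressed in muscle satellite cells.

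Plagl1, also called Zac1, activates a network of imprinted genes in the mouse that includes Igf2, H19, Cdkn1c and Dlk1. It had 0, 6.78, 5.85, 0 and 0 CPM in CD105+ arthritic libraries 10 to 14. The CD200+ arthritic libraries 5 to 9 had 174, 0, 158, 49.99 and 120 CPM, and the CD200+ nonimmunized libraries 1 to 4 had 413, 0, 183 and 114 CPM. The groups overlapped because libraries 6 and 2, both over 80% spike-ins, held no count. Every CD200+ library that held a count was above every CD105+ library. The log2 change of CD105+ over CD200+ arthritic cells was -5.29 (SE 2.00), which did not pass the threshold.

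Of the noncoding RNAs, Meg3 (Gtl2), the maternally expressed RNA of the Dlk1 domain, was separate between the populations. It had 0, 9.42, 3.35, 12.2 and 0.37 CPM in CD105+ arthritic libraries 10 to 14. The CD200+ arthritic libraries 5 to 9 had 325, 58.2, 99.98, 69.9 and 237 CPM, and the CD200+ nonimmunized libraries 1 to 4 had 94.7, 54.4, 66.3 and 388 CPM. No CD105+ library reached the lowest CD200+ library. The log2 change in arthritis was -4.94 (SE 1.15), and the mean was 31.2-fold lower in CD105+ cells. With 1 library left out it was from 23.0-fold (CD200+ library 5) to 48.0-fold (CD105+ library 13) lower.

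H19, the maternally expressed RNA next to Igf2 and host of the microRNA miR-675, showed no separation. It had 0, 16.6, 0, 20.3 and 0 CPM in CD105+ arthritic libraries 10 to 14. The CD200+ arthritic libraries had 15.8, 0, 43.9, 13.8 and 0 CPM in the order 5 to 9, and the CD200+ nonimmunized libraries had 2.96, 0, 17.2 and 14.7 CPM in the order 1 to 4. Libraries without a count stood beside libraries over 10 CPM in all 3 groups, and the groups overlapped. Its log2 change in arthritis was -0.99 (SE 2.12), under the threshold.

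Of the genes that restrain insulin-like growth factor and insulin signalling, Igf2r had the smallest spread between libraries. Its product is the mannose 6-phosphate receptor that takes up IGF2 and carries it to lysosomes. It had 14.9, 41.4, 25.9, 19.5 and 29.5 CPM in CD105+ arthritic libraries 10 to 14. The CD200+ arthritic libraries 5 to 9 had 94.1, 36.3, 95.8, 147 and 170 CPM, and the CD200+ nonimmunized libraries 1 to 4 had 88.3, 90.3, 76.3 and 258 CPM. The arthritic groups overlapped by a single pair, since library 6 lay under library 11. The log2 change in arthritis was -2.05 (SE 0.49), and the mean was 4.14-fold lower in CD105+ cells.

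Grb10, an adaptor that binds and dampens the insulin and IGF1 receptors, had 0, 15.5, 32.8, 27.0 and 18.8 CPM in CD105+ arthritic libraries 10 to 14. Its level was higher in CD200+ arthritic libraries 5 to 9, with 113, 48.1, 204, 209 and 270 CPM. The CD200+ nonimmunized libraries 1 to 4 had 171, 17.2, 239 and 279 CPM. In arthritis the populations did not overlap, while the nonimmunized library 2 lay within the CD105+ range. The log2 change in arthritis was -3.16 (SE 0.98), just outside the threshold. The adjusted p values next to the threshold were 0.0374 for Cdkn1c inside it and 0.0529 for Grb10 outside it.

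Cdkn1c, which encodes the cyclin-dependent kinase inhibitor p57 and is known from myoblasts that leave the cell cycle, had 0, 3.18, 13.1, 0.86 and 6.57 CPM in CD105+ arthritic libraries 10 to 14. For CD200+ arthritic libraries 5 to 9 the values were 52.0, 0, 336, 261 and 424 CPM. The CD200+ nonimmunized libraries 1 to 4 had 25.9, 23.9, 167 and 17.2 CPM. Library 6 at 0 was the only CD200+ library inside the CD105+ range. Its log2 change in arthritis was -5.49 (SE 1.56). The call was lost without any 1 of libraries 1, 7, 8, 9, 10, 11, 13 and 14, with adjusted p up to 0.0798, and also when no filter on low counts was used.

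Mest, which encodes a protein of the alpha/beta hydrolase fold that is linked to fat cell growth in the mouse, had 0, 4.74, 3.74, 0 and 0 CPM in CD105+ arthritic libraries 10 to 14. Libraries 5 to 9 of CD200+ arthritic cells had 0, 3.66, 136, 54.6 and 165 CPM. The CD200+ nonimmunized libraries 1 to 4 had 0, 0, 13.4 and 0.12 CPM. Libraries 7, 8 and 9 were far above the other 11, and the groups overlapped at 0. The log2 change of CD105+ over CD200+ arthritic cells was -5.38 (SE 2.36), under the threshold. Mest shares 912 exon bases with Copg2 on the opposite strand, whose reads cannot be told apart from its own since no source used here gives the strand setting. Copg2 averaged 8.18 ± 6.93, 7.92 ± 7.14 and 36.8 ± 41.2 CPM in CD105+ arthritic, CD200+ arthritic and CD200+ nonimmunized cells. Cdkn1c likewise shares 625 of its 2039 exon bases with the opposite-strand Gm44732, which had 17 counts in all 14 libraries together, and Meg3 shares 1228 of 18089 with Gm26906, which had 0.

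Dlk1, a membrane protein of the Delta and Notch type that holds back fat cell differentiation, had very few counts. They were found in 4 libraries, 23 counts in CD105+ library 13, 20 and 65 in CD200+ arthritic libraries 8 and 9, and 30 in CD200+ nonimmunized library 1. These equal 1.31, 1.37, 4.10 and 1.74 CPM. Its log2 change in arthritis was -1.99 (SE 2.10), under the threshold.

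**Figure D1:**
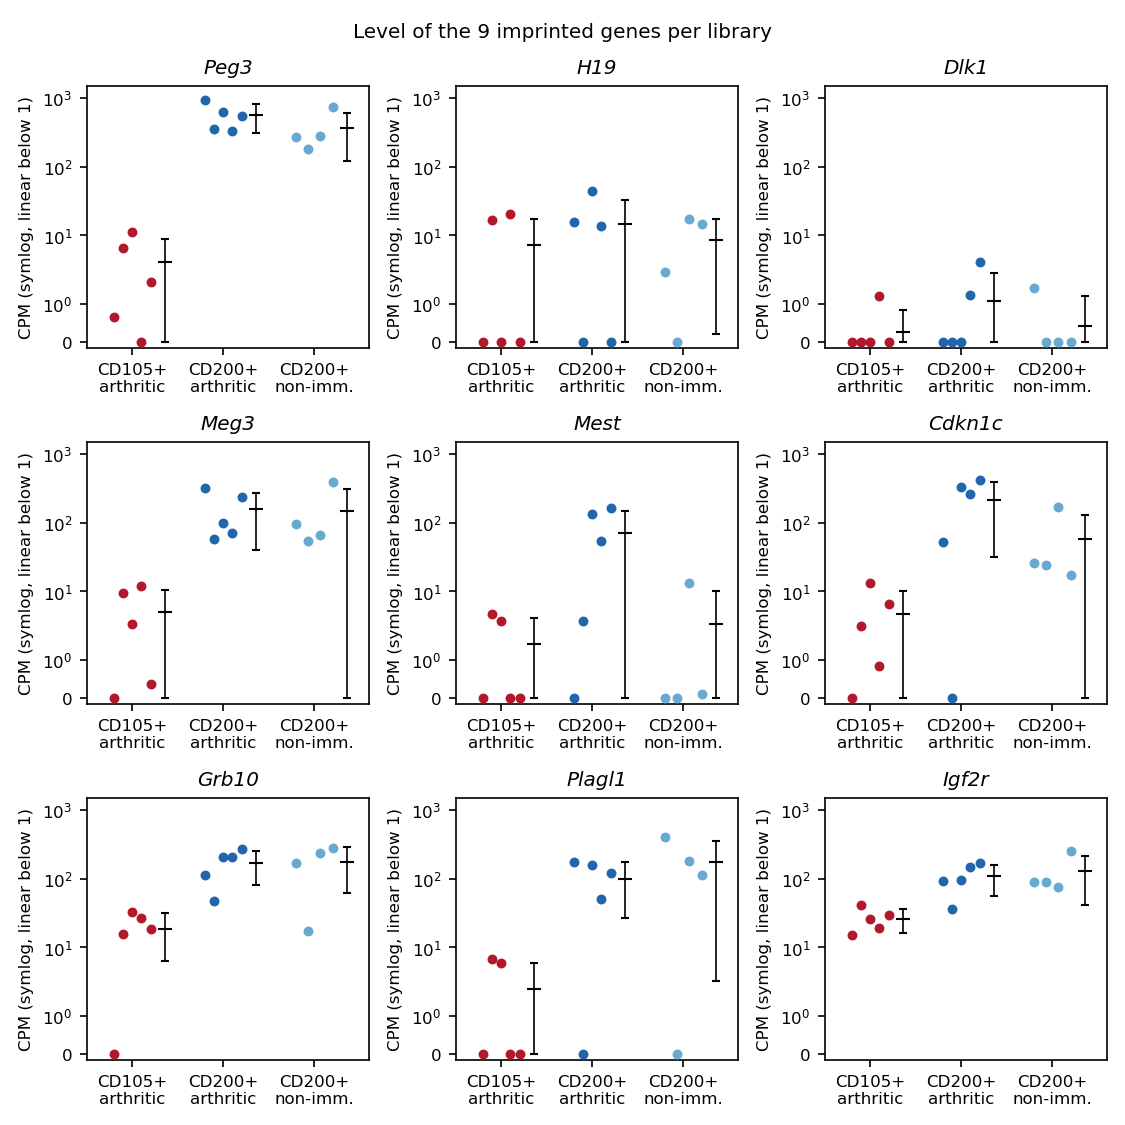
Level of each of the 9 genes in CPM (symmetric log axis, linear below 1) in every library of CD105+ arthritic (n = 5), CD200+ arthritic (n = 5) and CD200+ nonimmunized cells (n = 4). Points are libraries in the order of their numbers, and the bar beside them is the mean ± SD, drawn down to 0 where the SD is larger than the mean; Peg3 and Meg3 separate CD105+ from CD200+ libraries without overlap, while Dlk1 and H19 do not.

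In all, 3 of the 9 genes, Peg3, Meg3 and Grb10, did not overlap between the arthritic populations, where 16.8% of all genes did not overlap and 6.33% lay lower in CD105+ cells without overlap. Markers of some other cell types also differed in this contrast, where 11.3% of all genes were called and 6.48% were called lower. All 7 markers of muscle satellite cells and myoblasts were called lower in CD105+ cells. Their summed level was 7.13 to 35.9 CPM in CD105+ arthritic libraries, 1758 to 2475 CPM in CD200+ arthritic libraries and 1114 to 2378 CPM in CD200+ nonimmunized libraries, and Pax7, Myf5, Myog and Cdh15 were at 0 in CD105+ cells. Although the sort removed TER119+ cells, all 11 erythroid markers had a higher fitted level in CD105+ cells, 7 of them called, with summed levels of 28016 to 248602 CPM in CD105+ arthritic libraries, 47.3 to 10438 CPM in CD200+ arthritic libraries and 1174 to 10201 CPM in CD200+ nonimmunized libraries. In CD200+ arthritic cells 5 of these 11 were at 0. Osteoblast markers, 6 of 7 called lower, summed to 37.7 to 399 CPM in CD105+ arthritic libraries, 128 to 8305 CPM in CD200+ arthritic libraries and 10602 to 19084 CPM in CD200+ nonimmunized libraries. Stromal progenitor markers, 4 of 5 called lower, summed to 29.6 to 581 CPM in CD105+ arthritic libraries, 742 to 1416 CPM in CD200+ arthritic libraries and 158 to 3695 CPM in CD200+ nonimmunized libraries. Mural cell markers, 1 of 8 called lower, summed to 3.79 to 283 CPM in CD105+ arthritic libraries, 517 to 1646 CPM in CD200+ arthritic libraries and 330 to 1248 CPM in CD200+ nonimmunized libraries. Skeletal muscle markers had 3 of 7 tested called lower and 1 positive change. Their sums overlapped, at 58.2 to 187 CPM in CD105+ arthritic and 117 to 698 CPM in CD200+ arthritic libraries. Adipogenic markers had 1 of 5 tested called lower and 5 negative changes. No chondrocyte, lining fibroblast, endothelial or macrophage marker was called, and each of these 4 lists held changes in both directions. Macrophage markers summed to 5005 CPM in CD105+ library 11, against a CD105+ median of 8.27 CPM. Chondrocyte markers summed to 5480 CPM in CD105+ library 12, against a CD105+ median of 20.5 CPM. The part of these cell types in the levels of the 9 genes was not tested.

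Library sizes taken from the spike-ins in place of TMM moved the median log2 change of all genes in this contrast to 1.23. On that scale 8 of the 9 genes kept a negative change, H19 turning to 0.10, and all 9 lay below the median of all genes. Peg3 was then the only member called, at a log2 change of -5.73, while Meg3 at -3.53, Cdkn1c at -4.75 and Igf2r at -0.78 lost their calls.

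Levels of different genes were compared only per kilobase of exon. In CD200+ arthritic cells Cdkn1c was highest at a mean of 105 CPM per kb, above 95.3% of 14952 genes, followed by Peg3 at 42.2 CPM per kb, above 90.3%, though their ranges over libraries overlapped. Grb10, Mest, Plagl1, Igf2r and Meg3 followed at 18.6, 18.2, 12.8, 11.7 and 8.73 CPM per kb, and their ranges over libraries overlapped. H19 at 5.98 and Dlk1 at 0.193 CPM per kb came last. In CD200+ nonimmunized cells Cdkn1c at 28.7 and Peg3 at 27.5 CPM per kb had the highest means, and Mest was next to last at 0.858 CPM per kb. The place of Cdkn1c rested on library 3. Without it Cdkn1c was at 11.0 CPM per kb, under Peg3, Plagl1, Grb10 and Igf2r. Without library 4 Peg3 was at 18.4 CPM per kb, under Plagl1 at 25.4. In CD105+ cells H19, Igf2r, Cdkn1c and Grb10 lay at 3.00, 2.82, 2.33 and 2.07 CPM per kb, with overlapping ranges, and the other 5 genes at 0.430 CPM per kb or less. H19 led there on libraries 11 and 13 alone, and without either it lay under Igf2r, Cdkn1c and Grb10.

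**Figure D2:**
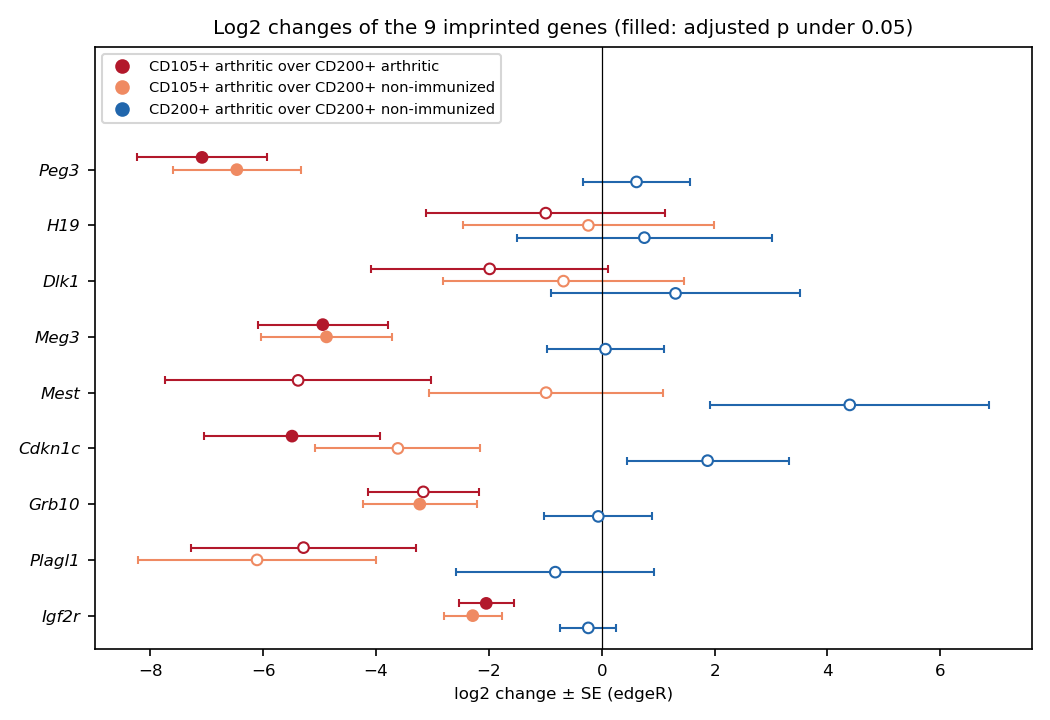
Log2 change ± SE of the 9 genes (edgeR) in CD105+ over CD200+ arthritic cells, CD105+ arthritic over CD200+ nonimmunized cells, and CD200+ arthritic over CD200+ nonimmunized cells, with filled points for adjusted p under 0.05. In both comparisons with CD105+ cells all 9 points lie left of 0 and 4 are filled, and in the comparison within CD200+ cells no point is filled.

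The effect of arthritis was asked within CD200+ cells. None of the 9 genes was called between CD200+ arthritic and CD200+ nonimmunized cells, and 0 of all 15015 genes, or 0%, were (edgeR quasi-likelihood test). At an unadjusted p under 0.05 there were 0 of the 9 genes and 915 of all genes, DESeq2 called 0 of the 9 and 303 of all genes, and limma voom called 0 of the 9 and 4 of all genes. The share of all genes at that unadjusted p was 6.09%. The groups overlapped for all 9 genes, and 2.29% of all genes did not overlap. A negative change was fitted for 3 of the 9, where 54.2% of all genes had one. Fitted changes were within 1 SE of 0 for Peg3 at 0.62 (SE 0.94), Meg3 at 0.07 (SE 1.03), Grb10 at -0.06 (SE 0.96), Igf2r at -0.24 (SE 0.50), Plagl1 at -0.82 (SE 1.75), H19 at 0.75 (SE 2.26) and Dlk1 at 1.31 (SE 2.21).

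Mest and Cdkn1c had the highest fitted changes with arthritis, 4.39 (SE 2.47) and 1.88 (SE 1.44) on the log2 scale, neither called (adjusted p = 0.99 and 1, edgeR). Mest averaged 71.8 ± 75.6 CPM in CD200+ arthritic cells and 3.38 ± 6.69 CPM in CD200+ nonimmunized cells. Cdkn1c averaged 215 ± 183 CPM in CD200+ arthritic cells and 58.5 ± 72.5 CPM in CD200+ nonimmunized cells. Both were high in libraries 7, 8 and 9 and low or at 0 in libraries 5 and 6 of the arthritic group, and among nonimmunized libraries both were highest in library 3. Library 3 set much of the nonimmunized mean, and without it the fitted Mest change, then against libraries nearly at 0, was 10.3 and the Cdkn1c change 3.27, still not called.

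Myog, the muscle transcription factor of myoblasts that begin to fuse, followed the same libraries. It had 15.2, 0, 239, 232 and 379 CPM in CD200+ arthritic libraries 5 to 9 and 0, 0, 56.6 and 0 CPM in CD200+ nonimmunized libraries 1 to 4. Across the 9 CD200+ libraries Spearman's rho with Myog was 0.96 for Cdkn1c and 0.84 for Mest, and in the 6 of them under 80% spike-ins it was 0.99 for both. Acta1, the skeletal muscle actin, had a rho of 0.95 with Mest and 0.72 with Cdkn1c. These are descriptions of a few libraries that differ in depth and pool the arthritic and nonimmunized groups. In the 6, every arthritic library lay above every nonimmunized library for Myog, Cdkn1c and Mest. The rho there therefore also holds the difference between the groups. With the share of spike-ins Cdkn1c had a rho of -0.78 and Mest one of -0.61, and Grb10 had a rho of 0.68 with the total of gene counts.

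Peg3, Meg3 and Igf2r tended to be higher where Pax7 was higher. Over the 9 CD200+ libraries, both groups pooled, Peg3 had a rho of 0.75 with Pax7, the satellite cell transcription factor. With Pax7, Meg3 had a rho of 0.73 and Igf2r one of 0.80. Igf2r had a rho of 0.88 with Cdh15 (M-cadherin). Peg3 and Meg3 had a rho of 0.82 with each other, and both were highest in library 5 of the arthritic group and in library 4 of the nonimmunized group. Their rho with Myog was 0.28 and 0.25. Plagl1 had a rho of -0.06 with Pax7 and of 0.77 with Pdgfra, a fibroblast and mesenchymal progenitor receptor. Among 180 such pairs computed, these were named after their values were seen, and no part of any cell type in them was tested.

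**Figure D3:**
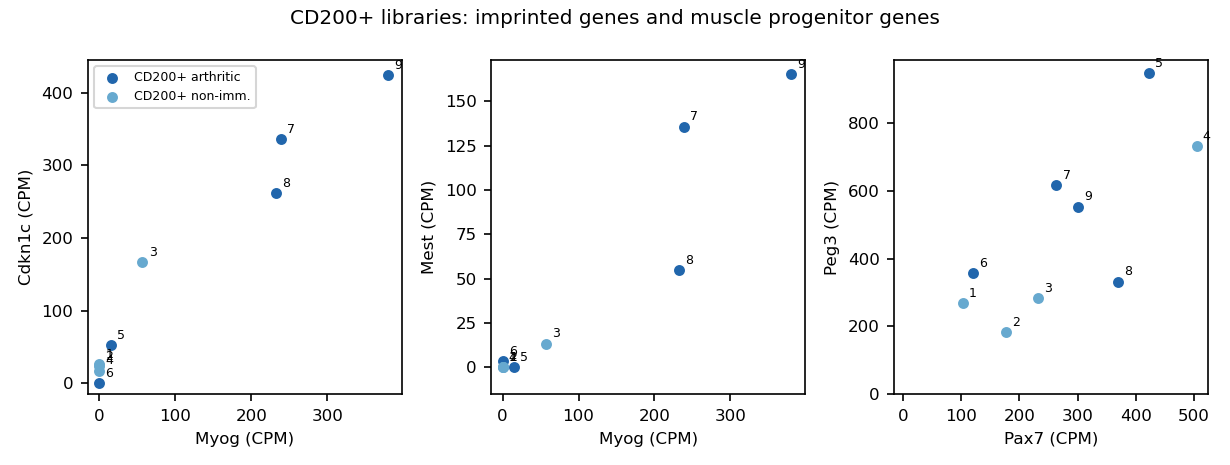
Levels in CPM of Cdkn1c and Mest against Myog, and of Peg3 against Pax7, in the 9 CD200+ libraries, labelled with their numbers (CD200+ arthritic, dark; CD200+ nonimmunized, light). Cdkn1c and Mest are highest where Myog is highest, in libraries 7, 8 and 9.

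Of 8571 genes with a mean of at least 10 CPM in CD200+ cells, those most like each member across the 9 libraries were named by Spearman's rho. For Cdkn1c the first was Myog (0.96), followed by Man2a1 and Anapc16. For Mest they were Ankrd10 (0.97), Acta1 and Hspe1. Meg3 was most like Dcp2 (0.98), Peg3 most like Naprt (0.94), Igf2r most like Riok1 (1.00), Grb10 most like Nod1 (0.98) and H19 most like Ate1 (0.95). These values describe 9 libraries, both groups pooled, and Dlk1 had counts in too few of them. Each named gene was picked as among the highest of 8571, and every member listed had such a gene. A rho this high is therefore no evidence of a link.

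CD105+ arthritic cells were also set against CD200+ nonimmunized cells, a comparison that differs in both population and disease and shares its CD105+ libraries with the comparison in arthritis. All 9 had a negative change, where 54.5% of all genes did. Again 4 of the 9 genes were called lower, Peg3, Meg3, Grb10 and Igf2r, where 13.2% of all genes were called and 7.63% were called lower. Peg3 changed by -6.47 (SE 1.13), Meg3 by -4.88 (SE 1.17), Grb10 by -3.22 (SE 1.01) and Igf2r by -2.29 (SE 0.51) on the log2 scale. The mean of Peg3 was 89.3-fold lower in CD105+ arthritic cells. With 1 library left out it was from 59.7-fold (CD200+ library 4) to 156-fold (CD105+ library 12) lower. The mean of Igf2r was 4.88-fold lower, or 3.24-fold without CD200+ library 4. Peg3, Meg3, Cdkn1c and Igf2r did not overlap between the groups, where 24% of all genes did not overlap and 11.5% lay lower without overlap.

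Mest, which had almost no counts in CD200+ nonimmunized cells, had a change of -0.99 (SE 2.08), under the threshold. Cdkn1c had a change of -3.61 (SE 1.46) and Plagl1 one of -6.11 (SE 2.10), both under the threshold. Those nearest to it were Grb10, at an adjusted p of 0.0498 inside it, and Plagl1, at 0.0689 outside it. The Grb10 call was lost with no filter, with only the 2 groups fitted, and without any 1 of libraries 1, 3, 4, 5, 7, 8, 9, 11, 12, 13 and 14, with adjusted p up to 0.106. With library sizes from the spike-ins none of the 9 was called, Peg3 having a change of -5.22.

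Beyond the 9, 67 other imprinted genes from textbook lists were looked at, of which 46 passed the filter and 6 had no count in any library. In arthritis 11 of the 46 were called lower and 2 higher in CD105+ cells, and 35 had a negative change. Of all genes, 6.48% were called lower, 4.79% were called higher and 51.2% had a negative change. The median log2 change was -2.06, also with the genes at 0 in CD105+ cells set to their bounds, against -0.05 for all genes. With library sizes from the spike-ins 27 of the 46 were negative, 37 lay below the median of all genes, and only Zim1, Cobl and Calcr were called. Between CD200+ arthritic and CD200+ nonimmunized cells 0 of the 46 were called by edgeR or limma voom, 1 had an unadjusted p under 0.05, and DESeq2 called 1, Zrsr1, lower.

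Among neighbours in the same imprinted domains as the 9, 5 of 17 tested were called lower in arthritis and 1, Phlda2, higher. The shares of all genes were 6.48% called lower and 4.79% called higher. Igf2, the growth factor next to H19, had 0, 4.62, 0.29, 0 and 0.52 CPM in CD105+ arthritic libraries 10 to 14, and 59.7, 32.3, 85.2, 52.2 and 94.5 CPM in CD200+ arthritic libraries 5 to 9. The groups did not overlap (log2 change -5.85, SE 1.63, adjusted p = 0.0349, edgeR quasi-likelihood test). The call was lost without any 1 of libraries 7, 8, 9, 10, 12, 13 and 14. H19, which shares enhancers with Igf2, did not show this separation, although the difference between the genes was not tested. Across the CD200+ libraries, both groups pooled, Igf2 had a rho of 0.82 with Cdkn1c and 0.78 with Mest.

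In the Peg3 domain, Zim1, a zinc finger gene, had no count in any CD105+ library, and 18.3 to 160 CPM in CD200+ arthritic and 18.5 to 142 CPM in CD200+ nonimmunized libraries. It was at least 1285-fold lower in CD105+ cells than in CD200+ arthritic cells (adjusted p = 0.000429, edgeR), and at least 769-fold without library 5. Usp29, whose promoter overlaps that of Peg3, averaged 0.0295 ± 0.0661 CPM in CD105+ arthritic cells and 8.01 ± 7.15 CPM in CD200+ arthritic cells (adjusted p = 0.0356, edgeR, lost without any 1 of libraries 3, 10, 11, 12, 13 and 14). Zfp264 had no count.

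Next to Grb10, Cobl, an actin nucleator, was at 0 in all CD105+ libraries and had 16.1 to 96.9 CPM in CD200+ arthritic and 14.8 to 46.5 CPM in CD200+ nonimmunized libraries. It was at least 1004-fold lower in CD105+ cells than in CD200+ arthritic cells (adjusted p = 0.000203, edgeR). Phactr2, next to Plagl1, averaged 3.81 ± 2.86 CPM in CD105+ arthritic cells and 53.9 ± 31.5 CPM in CD200+ arthritic cells, without overlap (adjusted p = 0.0141, edgeR). In the Dlk1 and Meg3 domain the noncoding Rian and Mirg had changes of -4.17 and -4.16 that edgeR did not call in arthritis, while DESeq2 called both and limma voom called Rian, and Rtl1 had no count. Mirg was called lower against CD200+ nonimmunized cells, at 0.0342 ± 0.0766 CPM in CD105+ arthritic cells and 4.75 ± 4.21 CPM in CD200+ nonimmunized cells (adjusted p = 0.0279, edgeR, lost without any 1 of libraries 1, 4, 10, 11, 12 and 14). Airn, the antisense RNA that silences Igf2r on the paternal copy and overlaps it without shared exon bases, had a change of -3.78 (SE 1.18, adjusted p = 0.0544, edgeR), which DESeq2 and limma voom called.

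In the Cdkn1c domain changes went in both directions. Phlda2, a placental growth regulator, was higher in CD105+ cells, with 5.13, 0, 1.05, 4.74 and 4.36 CPM in libraries 10 to 14 and no count in any CD200+ library (adjusted p = 0.0486, edgeR). This call at low counts was lost without any 1 of libraries 1 to 9, and the gene did not pass the filter without 1 of the 4 CD105+ libraries that held it. Cd81, Kcnq1ot1 and Nap1l4, the most abundant genes of the list, had changes of -0.84, -1.40 and 1.64, none called. They averaged 292, 62.4 and 180 CPM in CD105+ arthritic cells, and 525, 164 and 57.6 CPM in CD200+ arthritic cells.

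**Figure D4:**
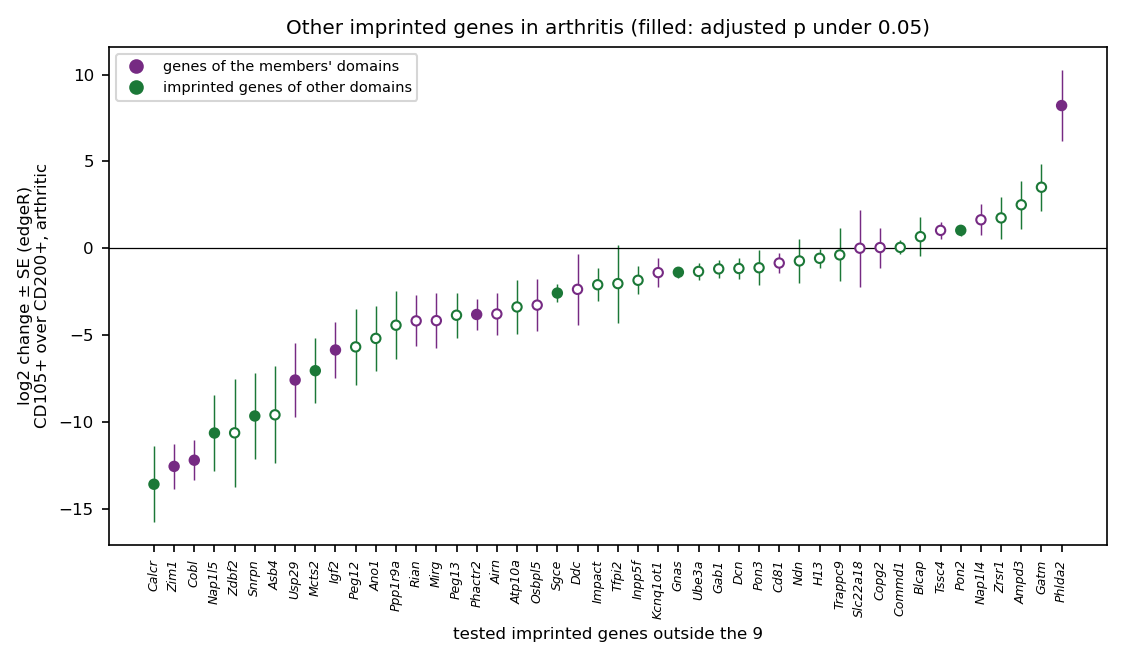
Log2 change ± SE (edgeR) of the 46 tested imprinted genes outside the 9 in CD105+ over CD200+ arthritic cells, ordered by size, coloured by whether they lie in a domain of the 9, with filled points for adjusted p under 0.05. Of the filled points 11 lie below 0 and 2 above it; genes at 0 in CD105+ cells have fitted changes that depend on the prior count.

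Of imprinted genes in other domains, 6 of 29 tested were called lower and 1 higher in arthritis. The shares of all genes were 6.48% called lower and 4.79% called higher. Calcr, the calcitonin receptor, which quiescent muscle satellite cells express in the mouse, had no count in CD105+ cells and averaged 126 ± 180 CPM in CD200+ arthritic cells, so it was at least 2621-fold lower in CD105+ cells (adjusted p = 0.00498, edgeR). Library 5, at 444 CPM, carried that mean, and without it the bound was 958-fold. Library 6 was at 0, so the groups overlapped. Sgce (epsilon-sarcoglycan) averaged 19.3 ± 7.30 CPM in CD105+ arthritic cells and 115 ± 80.2 CPM in CD200+ arthritic cells (adjusted p = 0.00822, edgeR). Gnas, the stimulatory G protein subunit, averaged 446 ± 134 CPM in CD105+ arthritic cells and 1158 ± 391 CPM in CD200+ arthritic cells (adjusted p = 0.0134, edgeR). Nap1l5, Snrpn and Mcts2 were the others called lower, and Nap1l5 and Snrpn had no count in CD105+ cells. Pon2, a paraoxonase, was higher, at 168 ± 11.7 CPM in CD105+ arthritic cells and 81.9 ± 23.4 CPM in CD200+ arthritic cells (adjusted p = 0.0416, edgeR). The call was lost without any 1 of libraries 1, 5 and 7 to 14 for Snrpn, of libraries 6 to 14 for Pon2, and of libraries 10, 12 and 13 for Mcts2. The edgeR test called neither Dcn (decorin) nor H13, and limma voom called Dcn.

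Against CD200+ nonimmunized cells, 12 of the 46 other imprinted genes were called lower and 1 higher in CD105+ cells. The shares of all genes were 7.63% called lower and 5.57% called higher. The median log2 change was -2.38 for the 46 (also with genes at 0 set to their bounds) and -0.24 for all genes. Zim1, Cobl, Phactr2, Sgce, Calcr, Nap1l5, Snrpn, Gnas and Mcts2 were called in both comparisons, which share the CD105+ libraries. Mirg, Asb4 and Peg13 were called against nonimmunized cells, and whether they differ between the comparisons was not tested. Gatm, an enzyme of creatine synthesis, averaged 159 ± 11.6 CPM in CD105+ arthritic cells and 4.17 ± 5.38 CPM in CD200+ nonimmunized cells (adjusted p = 0.0462, edgeR). These calls were lost without any 1 of libraries 1, 2, 3 and 7 to 14 for Gatm, of libraries 1, 3 and 6 to 14 for Asb4, and of libraries 1, 11 and 13 for Peg13. The Snrpn call was lost there without any 1 of libraries 1, 2, 4 and 7 to 14, and the Mcts2 call without any 1 of libraries 1, 3, 4, 7 and 9 to 13.

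Genes that act with the members in growth control were examined from textbook lists. Of all genes, 6.48% were called lower and 4.79% higher in CD105+ than in CD200+ arthritic cells. Of the insulin-like growth factor axis 6 of 15 tested genes were called lower in that comparison, and none higher. Besides Igf2 these were the receptor Igf1r, the receptor substrates Irs1 and Irs2, and the binding proteins Igfbp4 and Igfbp5. The Igf1r call was lost without any 1 of libraries 1, 5, 7, 9, 10, 12, 13 and 14, and the Igfbp4 call without any 1 of libraries 7, 8, 9, 12, 13 and 14. Irs1 was at 0 in CD105+ cells and averaged 49.9 ± 44.4 CPM in CD200+ arthritic cells (adjusted p = 0.0174, edgeR). Irs2 averaged 16.4 ± 3.94 CPM in CD105+ arthritic cells and 81.7 ± 46.9 CPM in CD200+ arthritic cells (adjusted p = 0.0108, edgeR), and Igfbp5 averaged 131 ± 84.4 CPM and 752 ± 315 CPM in the same order (adjusted p = 0.0121). M6pr, the other mannose 6-phosphate receptor, which does not bind IGF2, had a change of 0.63 (SE 0.59) in arthritis, against -2.05 for Igf2r. Against CD200+ nonimmunized cells 4 of the 15 were called lower, where 7.63% of all genes were. They were Igf1r (lost without library 4 or 10), Irs1, Irs2 and Igfbp5. With library sizes from the spike-ins Irs1 alone was called in either comparison.

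Of the cyclin-dependent kinase inhibitors 2 of 6 tested were called lower in arthritis, where 6.48% of all genes were. Beside Cdkn1c this was Cdkn1a (p21). It averaged 17.95 ± 21.6 CPM in CD105+ arthritic cells, 192 ± 109 CPM in CD200+ arthritic cells and 292 ± 286 CPM in CD200+ nonimmunized cells, and did not overlap (adjusted p = 0.0168 and 0.00871 against these, edgeR). Cdkn1b (p27) had a change of -1.67 (SE 1.42) in arthritis, Cdkn2c one of 0.76 and Cdkn2d one of -0.23, none called. With library sizes from the spike-ins edgeR called neither Cdkn1a nor Cdkn1c in either comparison. Of the paralogs of the members 2 of 5 were tested. Grb14, the relative of Grb10, had no count in CD105+ cells and averaged 10.7 ± 9.69 CPM in CD200+ arthritic cells (adjusted p = 0.0344, edgeR, lost without any 1 of libraries 1, 3, 7, 9, 10, 11, 12, 13 and 14, and with spike-in sizes). Plagl2, the relative of Plagl1, was higher in every CD105+ library than in every CD200+ library, at 31.8 ± 16.2 CPM in CD105+ arthritic, 5.57 ± 5.55 CPM in CD200+ arthritic and 2.98 ± 3.85 CPM in CD200+ nonimmunized cells. The edgeR test did not call it, and limma voom called it higher in both comparisons.

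A list of genes that set, keep or remove DNA methylation or guard imprints, among them the maintenance methyltransferase Dnmt1 and its partner Uhrf1, was tested for 11 of 14. None was called in arthritis by edgeR, and 4 had an unadjusted p under 0.05, where 26.8% of all genes did. DESeq2 called 2 and limma voom 5. Both called Tet2, an enzyme that oxidises methylated cytosine, lower and Smchd1 higher in CD105+ cells, and limma voom also called Dnmt1, Uhrf1 and Ctcf higher. The shares of all genes that these 2 fits called are not given here. Their calls are therefore not to be read as a result particular to this list. Dnmt1 averaged 161 ± 37.4 CPM in CD105+ arthritic cells, 40.8 ± 30.9 CPM in CD200+ arthritic cells and 12.1 ± 10.0 CPM in CD200+ nonimmunized cells, without overlap between CD105+ and CD200+ libraries. Uhrf1 averaged 309 ± 122, 30.9 ± 35.5 and 6.47 ± 4.34 CPM in the same order and was called higher in CD105+ arthritic than in CD200+ nonimmunized cells (adjusted p = 0.0454, edgeR, lost without any 1 of libraries 1, 2, 3, 4, 7 and 9 to 14). Zfp57, the zinc finger protein that guards imprints in the mouse embryo, had no count.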

How the data were processed

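Raw gene counts, whole numbers as deposited by the authors, were read from a table of 47821 entries, of which 92 are ERCC spike-ins. Per the labels' protocols, 200 to 500 cells were lysed per sample and amplified with a SMART-Seq v4 kit. Per the submitters' processing notes, the authors used cutadapt, HISAT2, StringTie and edgeR with GRCm38 and mm10, versions and counting options not given in the sources used here. A table named as filtered held 14322 entries identical to the raw counts and served as an alternative choice of genes. No pair of libraries was alike (at most 3.42% of genes with equal counts).

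Symbols, positions and exon lengths came from GENCODE M21 (GRCm38). Gene counts without spike-ins were filtered (filterByExpr, minimum count 10), scaled by TMM and fitted over all 14 libraries with edgeR 4.0.16 in R 4.3.3 (quasi-likelihood, robust, 2-sided, Benjamini-Hochberg over 15015 genes, threshold 0.05). The SE was taken as the size of the log2 change over the root of the F statistic. The common biological coefficient of variation was 1.28. The tests were also run on counts simulated from the mean levels and fitted dispersions of these same libraries. The outcome is not given here, and such a run cannot vouch for libraries that differ in their share of spike-ins. Alternatives were RLE factors, spike-in sizes, no filter, 10 CPM in 4 libraries, no robust shrinkage, 2-group fits, DESeq2 1.42.0, limma 3.58.1 voom, no libraries over 80% spike-ins, and each library left out in turn.

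The members and all lists were chosen with earlier results of these data known. Named genes are the 9 members, every listed gene called in a comparison, the 3 most abundant of each list, and the 3 most alike genes per member, while correlated pairs and other listed genes were named after their values were seen. Some genes that this rule names are not reported here. Floors cover counting error only.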

Additional observations from a re-analysis of the deposited data

Results flagged for a closer look

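Of 27 groups of values (9 genes in 3 groups), 6 held a library far from the others by Dixon's criterion, which chance flags in about 1 group in 20 where values are normally distributed. These values are skewed and hold zeros, so the number is not to be read against that rate. Within CD200+ nonimmunized cells, library 4 stood above the other 3 for Meg3, at 388 CPM, and for Igf2r, at 258 CPM. Library 3 stood above the others for Mest, at 13.4 CPM, and for Cdkn1c, at 167 CPM. Library 3 was also the only nonimmunized library with a count for Myog, at 56.6 CPM, and library 4 was the highest for Pax7, at 504 CPM. Dlk1 was flagged in CD105+ arthritic library 13, at 1.31 CPM, and in CD200+ nonimmunized library 1, at 1.74 CPM, each the only library of its group with a count. Library 3 also had the highest sums among nonimmunized libraries for B and plasma cell markers (1622 CPM), neutrophil markers (3775 CPM) and chondrocyte markers (18534 CPM). The part of these marker genes in the values was not tested.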

How the results depend on the processing

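No paired analysis was possible because the libraries are numbered 1 to 14 and no number is shared between groups. In arthritis 4 of 9 members were called between CD105+ and CD200+ cells, 1 with spike-in sizes, 6 with DESeq2, 7 with limma voom and 3 to 5 without 1 library. Against CD200+ nonimmunized cells 4 were called, 0 with spike-in sizes, 6 with DESeq2 and 3 to 6 without 1 library, and within CD200+ cells 0 in every fit. Of other imprinted genes 13 were called in arthritis, 3 with spike-in sizes, 8 with no filter, 27 with DESeq2, 27 with limma voom and 7 to 16 without 1 library (7 without library 10). Against nonimmunized cells 13 were called, 3 with spike-in sizes, 7 with no filter, 28 with DESeq2, 23 with limma voom and 7 to 17 without 1 library (7 without library 1). Within CD200+ cells DESeq2 called 1. In the main fit 11.3% of all genes were called in arthritis and 13.2% against nonimmunized cells. The shares of all genes under the other fits are not given for these comparisons. A higher or lower count from such a fit is therefore not to be read as stronger or weaker evidence.

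Changes of sign occurred only in comparisons in which the member was not called. For CD105+ over CD200+ arthritic cells H19 gave 0.10 with spike-in sizes, and -1.82 to 0.017 without 1 library. For CD105+ arthritic over nonimmunized cells H19 gave 0.99 and Mest 0.11 with spike-in sizes, and without 1 library H19 gave -1.06 to 0.32, Mest -1.84 to 4.96 and Dlk1 -1.10 to 4.75. Within CD200+ cells limma voom gave -1.37 for H19, 0.22 for Grb10 and 0.32 for Igf2r. Spike-in sizes gave -0.043 for Meg3, 0.10 for Grb10 and 0.10 for Igf2r. Meg3 gave -0.022 with no filter, -0.016 with DESeq2 and -0.44 without the libraries over 80% spike-ins. Without 1 library the ranges were -0.25 to 1.30 for H19, -0.38 to 1.12 for Meg3, -0.45 to 0.24 for Grb10, -1.27 to 0.010 for Plagl1 and -0.46 to 0.36 for Igf2r. The cause of these changes was not tested.

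Depth limits the low members: 3 counts in 1 library equal 0.171 to 0.914 CPM, so Dlk1, and H19 or Mest at 0, cannot be told from low expression.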
